A study of Bos taurus with 8 samples.

Results

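Transcript levels of Notch receptors, Notch ligands and Notch target genes were examined in bovine preadipocyte clones. The set was chosen by gene symbol, with earlier results of these data known. It comprised 3 receptors (*NOTCH1*, *NOTCH2* and *NOTCH3*), 4 ligands (*DLL1*, *DLL4*, *JAG1* and *JAG2*) and 3 target genes (*HES1*, *HEY1* and *HEY2*). Of these 10 genes, 9 were among the 18871 genes measured, and *NOTCH3* was not analysed here. Notch receptors are membrane proteins that are activated by Delta-like or Jagged ligands on a neighbouring cell, after which the intracellular part of the receptor is cut free, enters the nucleus and joins the DNA-binding protein RBPJ. Target genes of the HES and HEY families encode transcriptional repressors. In muscle and fat precursors, Notch signalling is known for keeping cells undifferentiated, and in vessels it takes part in the choice between arterial and venous fate.

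RNA-seq counts came from 8 clones, each grown from a single cell of the stromal vascular fraction (SVF), which holds the non-adipocyte cells of fat, of adult male Angus-cross steers. The IMF group held 4 clones (IMF1 to IMF4) from intramuscular fat dissected out of longissimus muscle, and the SF group held 4 clones (SF1 to SF4) from subcutaneous fat. No treatment or genotype separated the groups, and all clones had been picked by the study for fast growth, lipid accumulation on induction and a fibroblast-like shape, so that they represent selected clones and not the whole SVF. The clones of a group came from separate SVF samples, but whether IMF and SF clones of the same number shared a steer was not stated, and the methods and the labels give different numbers of steers. The methods place RNA collection in subconfluent growth culture, whereas the series description places it after adipogenic induction.

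Between 19654917 and 29308882 counts were assigned to genes in each clone. At that depth 3 counts, taken as the lowest level that could be told from 0, corresponded to 0.0981 to 0.165 CPM (counts scaled to a common TMM-normalised library size), a floor that covers counting error only. By the median over genes, the IMF clones resembled each other more closely than the SF clones did. For a pair of clones, the median over genes of the squared count difference divided by its counting variance (a measure chosen after the data were seen) was 1.46 to 2.83 within IMF, 3.03 to 6.21 within SF and 7.21 to 18.0 between the groups, where counting error alone gives 0.455. As a chi-square per degree of freedom over genes this order did not hold, with 53.8 to 125 within IMF and 41.3 to 114 within SF. All pairs differed by more than counting error, which leaves out any difference between cultures and so does not decide how clones are treated. All 8 clones were kept as separate samples because each was labelled as its own clone. Between IMF clones the median biological coefficient of variation was 4.08%, and between SF clones 12.3%. These medians cover genes with a mean of at least 5 CPM in both groups whose counts were not all even. How far the IMF clones are independent of each other was not tested, and the p-values take them as separate samples.

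Markers were examined first, because the clones were labelled as preadipocytes. Of 12 preadipocyte and stromal markers measured, 1 was higher in IMF (*CD34*), 3 were lower (*COL1A1*, *THY1* and *PPARG*) and 8 did not pass the threshold, for which the adjusted p-value had to lie under 0.05 and the log2 fold change had to reach 1 in either direction. Of all genes tested 8.82% passed it, 4.78% higher and 4.04% lower in IMF, and these shares are the background of the marker counts. The marker lists were chosen with earlier results of these data known. They hold *SELP*, *SELE*, *CD93*, *MYOD1*, *MYOG* and *CHRNG*, which the paper lists among the genes most raised in these same IMF clones. The contrast of the endothelial and muscle lists with the background was therefore partly set in advance. *COL1A1*, a fibrillar collagen chain, was the most abundant gene of this list over all 8 clones. It averaged 3431 TPM (counts scaled by gene length and library) in IMF and 8240 TPM in SF. Within IMF *COL1A2* was more abundant, at 3766 TPM. *CD34*, a surface marker of stromal progenitors and of endothelium, had 216, 301, 245 and 222 counts in the IMF clones but 2, 1, 1 and 0 counts in the SF clones. The IMF clones also carried transcripts of other cell types. Of 23 endothelial markers 21 were higher in IMF and none was lower, and their summed level was 280, 263, 299 and 295 TPM in the IMF clones against 56.7, 49.2, 39.9 and 46.3 TPM in the SF clones. Over all 8 clones the most abundant endothelial marker was the junction gene *CLDN5*. It did not pass the threshold (48.2 TPM in IMF and 40.5 TPM in SF), and all 8 of its counts were even numbers, as were those of *DLL4*. Without *CLDN5* the sums averaged 236 TPM in IMF and 7.50 TPM in SF. Within IMF the selectin *SELP* was more abundant than *CLDN5*, at 80.4 TPM against 0.00675 TPM in SF, and it passed. *KDR*, *FLT4*, *EMCN*, *SOX7*, *SOX18*, *SELE* and *CD93* had 0 counts in every SF clone. Of 15 skeletal muscle lineage markers, all 15 were higher in IMF, with summed levels of 893, 758, 872 and 665 TPM in the IMF clones and 15.0, 0.649, 6.53 and 17.5 TPM in the SF clones. The cardiac actin gene *ACTC1* was the most abundant of them over all 8 clones and in IMF. In SF *DES* was, at 8.46 TPM against 0.167 TPM for *ACTC1*. *MYOD1*, *MYOG*, *PAX3*, *MYMX*, *CHRNA1* and *CHRNG* were at 0 in every SF clone. Each clone had been grown from a single cell, a step meant to leave no cells of another origin. The samples were nevertheless bulk RNA of a culture, in which fewer cells of a type and less RNA per cell cannot be told apart.

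The remaining marker lists differed less or in the other direction. Of 11 pericyte and smooth muscle markers 2 were higher and 5 lower in IMF; their summed level, led by *TAGLN*, was 2423 ± 231 TPM in IMF and 6122 ± 3157 TPM in SF (mean ± SD, n = 4), with the highest value, 10571 TPM, in SF1. Of 4 adipocyte markers 1 was higher, the fatty acid carrier *FABP4*. It was the most abundant of them over all 8 clones and in IMF. In SF it averaged 0.448 TPM, below *CEBPA* (4.65 TPM) and *PLIN1* (1.81 TPM). The list summed to 32.4 ± 4.42 TPM in IMF and 7.31 ± 2.68 TPM in SF. Without *FABP4* the sums were 6.76 and 6.86 TPM. Of 7 leukocyte markers 1 was higher (*CD14*) and 1 lower (*CD3E*), and the most abundant was *TYROBP*. Of 3 Schwann cell markers 1 was lower, *NGFR*, the most abundant over all 8 clones and in SF. In IMF *S100B* was more abundant, at 4.84 TPM against 2.56 TPM for *NGFR*. The leukocyte list summed to 48.2 ± 10.3 TPM in IMF and 75.2 ± 21.1 TPM in SF, and the Schwann cell list to 7.90 ± 0.624 and 12.0 ± 1.59 TPM. Without *NGFR* the Schwann cell sums turned, to 5.34 TPM in IMF and 4.13 TPM in SF.

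Between the IMF and SF clones, 5 of the 9 Notch genes passed the threshold (edgeR, quasi-likelihood; Benjamini-Hochberg over the 18339 genes tested), where 8.82% of all genes tested passed. Of these, 4 were higher in IMF (*JAG2*, *HEY2*, *DLL1* and *HEY1*), a direction in which 4.78% of all genes passed, and 1 was lower (*HES1*), a direction in which 4.04% passed. The balance of these directions over all genes depended on scaling and tool, with 877 higher and 741 lower here, 1078 and 539 with total counts alone, and 977 and 1019 in DESeq2. In all 5 the IMF and SF clones did not overlap in CPM, as was the case for 32.1% of all genes tested. Because the set was chosen with earlier results of these data known, these comparisons with the background are descriptive only. All 9 genes exceeded the minimum of 20 counts used for testing. The median log2 fold change of the 9 genes was -0.19, beside -0.03 for all genes tested. By role, 0 of 2 receptors, 2 of 4 ligands and 3 of 3 target genes passed in edgeR. For the receptors the count was 0 in DESeq2 and limma-voom too, and 1 receptor, *NOTCH1*, had an unadjusted p-value under 0.05.

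**Figure D1:**
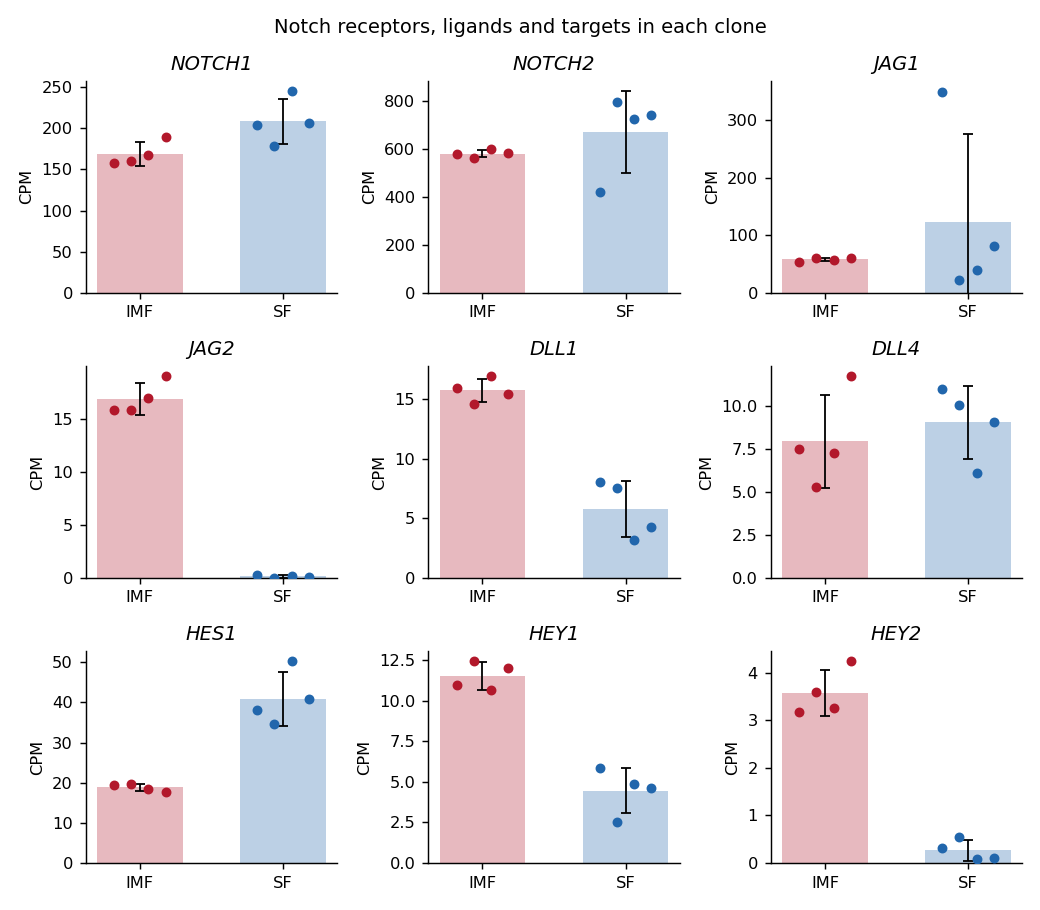
Level of each Notch gene in CPM (vertical axis, starting at 0) in the 4 IMF and the 4 SF clones, with 1 point per clone, bars at the group mean and error bars of 1 SD; the lower arm for *JAG1* in SF would reach below 0 and ends at the axis. *JAG2*, *DLL1*, *HEY1* and *HEY2* lie higher in every IMF clone, *HES1* lies higher in every SF clone, and SF1 stands at 350 CPM for *JAG1*.

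Neither receptor passed the threshold between the groups. *NOTCH2* (chromosome 3, 23196522 to 23371805) was at 576, 560, 598 and 582 CPM in the IMF clones and at 419, 795, 725 and 740 CPM in the SF clones. The IMF values fell between the lowest SF clone, SF1, and the other SF clones. The log2 fold change of IMF over SF was -0.21 (SE 0.19, adjusted p = 0.456, edgeR). Without SF1 it was -0.38 with an adjusted p of 0.00739 (edgeR), within a range of 0.00739 to 1 over 19 alternatives. The upper end came from glmTreat, which tests against the fold threshold itself and not against no difference. *NOTCH1* (chromosome 11, 103934022 to 103980133), the receptor best known from muscle progenitors and endothelium, was at 157, 160, 168 and 189 CPM in the IMF clones and at 204, 179, 245 and 207 CPM in the SF clones. Only SF2 lay within the range of the IMF clones, and the log2 fold change was -0.31 (SE 0.11, adjusted p = 0.0791, edgeR). For *NOTCH1* the adjusted p was 0.0314 in DESeq2 and 0.0410 in edgeR without SF2, within a range of 0.0314 to 1 over 19 alternatives, with the fold under the threshold in each. Here too glmTreat gave the upper end. *NOTCH4*, a receptor best known from endothelium, was low in both groups, at 2.25, 2.65, 2.45 and 2.71 CPM in the IMF clones and 1.69, 1.95, 1.62 and 1.82 CPM in the SF clones. These ranges did not overlap, but the gene did not pass the threshold (log2 fold change 0.51, SE 0.18, adjusted p = 0.0780, edgeR).

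Per gene length, *NOTCH2* held most of the summed level of *NOTCH1*, *NOTCH2* and *NOTCH4* in every clone, 75.3 ± 1.45% in IMF and 73.3 ± 6.43% in SF (mean ± SD, n = 4). *NOTCH1* held 24.2 ± 1.43% and 26.3 ± 6.38%, and without SF1 the difference of IMF minus SF turned for *NOTCH1* (from -2.14 to 0.682 percentage points) and for *NOTCH2* (from 1.94 to -0.915). The share of *NOTCH4* was 0.524 ± 0.0432% in IMF and 0.323 ± 0.0677% in SF. For *NOTCH4* the 2-sided exact permutation test over the 8 clones gave p = 0.0286, the smallest that 4 clones against 4 allow, and p = 0.114 after adjustment over the 8 receptor and ligand shares tested. The summed receptor level was 117 ± 9.63 TPM in IMF and 136 ± 30.8 TPM in SF.

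Among the ligands, *JAG2* separated the groups most. *JAG2* (chromosome 21, 69505929 to 69527022), a Jagged ligand found in endothelium and in developing muscle, was at 15.8, 15.8, 16.9 and 19.0 CPM in the IMF clones and at 0.308, 0, 0.122 and 0.110 CPM in the SF clones. The SF values rested on 6, 0, 3 and 2 counts, so that SF1 alone exceeded the floor of 3 counts. The log2 fold change was 6.92 (SE 0.44, adjusted p = 2.68e-05, edgeR), and without SF1 it was 7.63. *DLL1* (chromosome 9, 103923196 to 103932475), a Delta-like ligand that sustains muscle progenitors in the embryo, was at 15.9, 14.6, 16.9 and 15.4 CPM in the IMF clones and at 8.06, 7.51, 3.21 and 4.30 CPM in the SF clones. Every IMF clone exceeded every SF clone, and SF3 and SF4 were the lowest. *DLL1* was 2.73-fold higher in IMF (log2 fold change 1.45, SE 0.28, adjusted p = 0.00611, edgeR).

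The other ligands did not pass the threshold. *JAG1* (chromosome 13, 3939809 to 3984202), the Jagged ligand known from vessels and smooth muscle, was at 53.7, 59.6, 57.4 and 60.5 CPM in the IMF clones and at 350, 22.5, 40.2 and 81.7 CPM in the SF clones. The IMF clones were nearly level, whereas SF1 lay far above all other clones and SF2 and SF3 lay below the IMF range. The log2 fold change was -1.09 (SE 0.75, adjusted p = 0.329, edgeR), and without SF1 it turned to 0.27. In SF1 the pericyte and smooth muscle marker sum was also the highest of the 8 clones, led by *ACTA2* (5099 TPM) and *TAGLN* (4310 TPM). Of the same list, *RGS4* (0.196 TPM) and *ABCC9* (0.0267 TPM) were at their lowest of the 8 clones in SF1. The part of these transcripts in the *JAG1* level was not tested. *DLL4* (chromosome 10, 36464678 to 36473753), a Delta-like ligand of arterial and sprouting endothelium, was at 7.48, 5.30, 7.25 and 11.7 CPM in the IMF clones and at 11, 10.0, 6.09 and 9.04 CPM in the SF clones. The ranges overlapped (log2 fold change -0.19, SE 0.27, adjusted p = 0.656, edgeR), and all 8 *DLL4* counts were even numbers. *DLL3*, a Delta-like protein that does not activate receptors on neighbouring cells, had 0 to 38 counts per clone, all even as well, and its log2 fold change of 0.16 (SE 1.17, adjusted p = 0.942, edgeR) changed sign without IMF3 (-0.96), without SF1 (-0.25) and without SF2 (-0.13).

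In TPM, the make-up of the ligands varied less among the IMF clones than among the SF clones. *JAG1* held 50.7, 56.3, 50.1 and 49.1% of the summed ligand level in the IMF clones and 92.5, 46.5, 71.9 and 77.7% in the SF clones. *JAG2* held 19.5 ± 0.359% in IMF and 0.132 ± 0.117% in SF (exact permutation test, 2-sided, p = 0.0286, adjusted p = 0.114). *DLL1* held 15.8 ± 1.29% and 7.75 ± 6.71%, and *DLL4* 11.8 ± 3.19% and 18.3 ± 12.6%. SF2 had the highest share of both (17.5% and 35.2%), above every IMF clone, and without SF2 the differences of IMF minus SF went from 8.08 to 11.3 percentage points for *DLL1* and from -6.45 to -0.835 for *DLL4*. After adjustment 0 of the 8 receptor and ligand shares lay under 0.05 in the exact permutation test, and 2 of them, those of *JAG2* and *NOTCH4*, did so before adjustment. With 4 clones against 4, at least 5 of the 8 shares would have to be fully separated for any adjusted p-value to fall under 0.05, so this count was largely set by the design. The summed ligand level was 31.8, 28.3, 34.9 and 32.9 TPM in the IMF clones and 104, 14.8, 16.5 and 26.1 TPM in the SF clones, so that SF1 exceeded and the other SF clones fell short of every IMF clone.

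**Figure D2:**
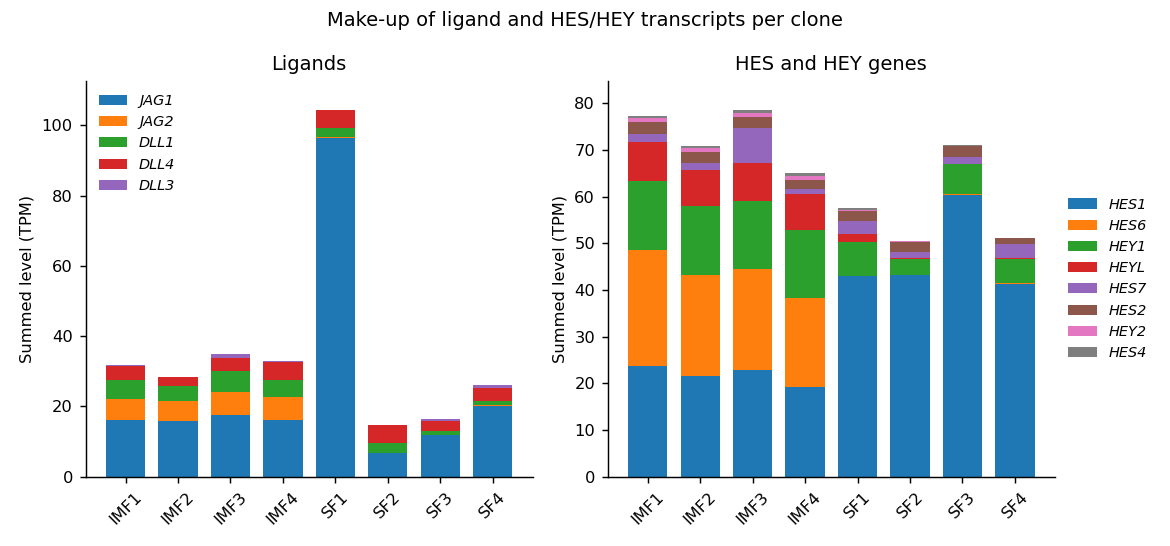
Summed levels in TPM (vertical axes, starting at 0) of the ligands (left) and of the HES and HEY genes (right) in each of the 8 clones, divided by gene. *JAG2* and *HES6* are visible in the IMF clones and nearly absent from the SF clones, *JAG1* fills most of the SF1 column, and *HES1* fills most of each SF column on the right.

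The 3 target genes differed in direction. *HES1* (chromosome 1, 73362774 to 73365254), a repressor that responds to Notch in many cell types and also to other signals, was at 19.4, 19.7, 18.5 and 17.6 CPM in the IMF clones and at 38.1, 34.5, 50.2 and 40.9 CPM in the SF clones. All IMF clones lay below all SF clones. *HES1* was 2.18-fold higher in SF (log2 fold change of IMF over SF -1.12, SE 0.12, adjusted p = 0.000321, edgeR). The fold was close to the threshold: with libraries scaled by total counts alone, which moved the median of all genes from -0.03 to 0.12, it was -0.98 and no longer passed. Relative to the median gene it was -1.09 under both scalings.

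The HEY genes moved the other way. *HEY1* (chromosome 14, 42969171 to 42972066), a repressor and Notch target in vessels and in muscle stem cells, was at 11, 12.4, 10.7 and 12.0 CPM in the IMF clones and at 5.85, 2.50, 4.87 and 4.63 CPM in the SF clones. The groups did not overlap, SF2 being the lowest, and *HEY1* was 2.58-fold higher in IMF (log2 fold change 1.37, SE 0.23, adjusted p = 0.00349, edgeR). *HEY2* (chromosome 9, 25546012 to 25561094), a target best known from arteries and heart, was at 3.17, 3.60, 3.26 and 4.24 CPM in the IMF clones and at 0.308, 0.551, 0.0812 and 0.110 CPM in the SF clones. SF1 and SF2 lay above the floor of 3 counts, with 6 and 11 counts, and SF3 and SF4 below it, with 2 counts each. The log2 fold change was 3.75 (SE 0.52, adjusted p = 0.00128, edgeR), and without SF2 it was 4.40. These directions of *HES1*, *HEY1* and *HEY2* were the same under each library scaling tried.

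In TPM, a ratio formed after the values were seen, *HES1* exceeded *HEY1* 1.60, 1.44, 1.57 and 1.33 times in the IMF clones and 5.91, 12.5, 9.35 and 8.01 times in the SF clones. Other genes of the families were read beside them. *HES6*, which opposes HES1 and is known from differentiating muscle and nerve precursors, was at 34.8, 34.0, 29.6 and 30.3 CPM in the IMF clones and at 0.154, 0.0501, 0.325 and 0.110 CPM in the SF clones. Its log2 fold change was 7.53 (SE 0.30, adjusted p = 2.89e-06, edgeR) and 8.16 without SF3, from 3, 1, 8 and 2 counts in the SF clones. *HEYL*, a Notch target of muscle stem cells and vascular smooth muscle, was at 17.2, 17.3, 16.4 and 17.4 CPM in the IMF clones and at 3.95, 0.350, 0 and 0.606 CPM in the SF clones. SF1 stood above the other SF clones but below every IMF clone, and the log2 fold change of 3.82 (SE 0.92, adjusted p = 0.0169, edgeR) became 5.83 without SF1. *HES4*, chosen after its values were seen, showed a similar distribution, with 1.78, 1.90, 1.77 and 2.09 CPM in the IMF clones and 1.59, 0.100, 0.162 and 0.276 CPM in the SF clones. With all 8 clones it did not pass in edgeR (log2 fold change 1.82) but did in limma-voom (2.59), and it passed in edgeR without SF1 (3.37). *HES2* and *HES7* did not pass, *HES3* was below the minimum for testing, and *HES5* was not analysed here.

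As shares of the summed TPM of *HES1*, *HES2*, *HES4*, *HES6*, *HES7*, *HEY1*, *HEY2* and *HEYL*, a description chosen after the values were seen and not tested, *HES1* made up 30.7, 30.3, 29.2 and 29.5% in the IMF clones and 74.6, 85.5, 85.0 and 80.9% in the SF clones. *HES6* made up 29.8 ± 1.96% in IMF and 0.173 ± 0.106% in SF, *HEY1* 20.3 ± 1.68% and 9.66 ± 2.40%, and *HEYL* 11 ± 0.556% and 0.985 ± 1.43% (mean ± SD, n = 4). Among the SF clones *HEYL* made up 3.11, 0.349, 0 and 0.482%, so that SF1 carried most of the SF mean. The total differed less, at 72.9 ± 6.24 TPM in IMF and 57.5 ± 9.50 TPM in SF. *JAG2*, *HEY1*, *HEY2*, *HES6* and *HEYL* are also transcribed in endothelium or in the muscle lineage, whose marker sums moved in the same direction between the groups (284 ± 16.5 against 48.0 ± 6.99 TPM for endothelium and 797 ± 106 against 9.93 ± 7.77 TPM for muscle). *DLL4*, *NOTCH1*, *JAG1* and *NOTCH4*, described above as known from endothelium or vessels, did not pass the threshold. Their log2 fold changes were -0.19, -0.31, -1.09 and 0.51. The part of endothelial and muscle transcripts in these values was not tested.

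Ordered by mean TPM, the IMF clones had *NOTCH2* (87.9 ± 8.07), *NOTCH1* (28.2 ± 2.28), *HES1* (21.8 ± 2.01), *JAG1* (16.4 ± 0.726), *HEY1* (14.7 ± 0.216), *JAG2* (6.25 ± 0.556), *DLL1* (5.06 ± 0.652), *DLL4* (3.82 ± 1.19) and *HEY2* (0.855 ± 0.0706). In IMF only *JAG2* and *DLL1*, and *DLL1* and *DLL4*, overlapped between clones as neighbours in this order. In SF the order was *NOTCH2* (101 ± 29.1), *HES1* (46.9 ± 8.95), *NOTCH1* (34.6 ± 5.46), *JAG1* (33.9 ± 42.1), *HEY1* (5.58 ± 1.66), *DLL4* (4.30 ± 1.06), *DLL1* (1.84 ± 0.821), *HEY2* (0.0646 ± 0.0574) and *JAG2* (0.0483 ± 0.0462). There the ranges of *HES1* and *NOTCH1*, *NOTCH1* and *JAG1*, *JAG1* and *HEY1*, *HEY1* and *DLL4*, and *HEY2* and *JAG2* overlapped. *JAG1* was at 96.5 TPM in SF1 and at 6.88, 11.8 and 20.3 TPM in SF2, SF3 and SF4. Its overlap with *NOTCH1*, and most of its mean, rested on SF1. The last places in SF rested on 0 to 11 counts per clone, and *JAG2* lay above *HEY2* in SF1, SF3 and SF4.

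The rest of the pathway was read from a list of 78 genes ordered by role, likewise chosen with earlier results known. Of the 78, 74 were measured and 73 tested. Of these, 12 passed the threshold, 7 higher and 5 lower in IMF, or 16.4% of the genes tested, and the median log2 fold change was 0.04. By adjusted p-value alone, which 25.8% of all genes passed, 30 of the 73 passed, 18 higher and 12 lower. The 54 genes of ligand ubiquitination, receptor glycosylation, cleavage and trafficking, the nuclear complex and the corepressors, a grouping made after the values were seen, held 5 of the 12 that passed. That is 9.26% of the 54, beside 8.82% of all genes tested; by adjusted p-value alone 22 of the 54 passed, 14 higher and 8 lower, or 40.7% beside 25.8%. The remaining 7 lay among the 5 non-canonical ligands and the 12 further genes tested that were listed as HES and HEY family members or other targets. *HES6*, which opposes HES1, was listed there by family.

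**Figure D3:**
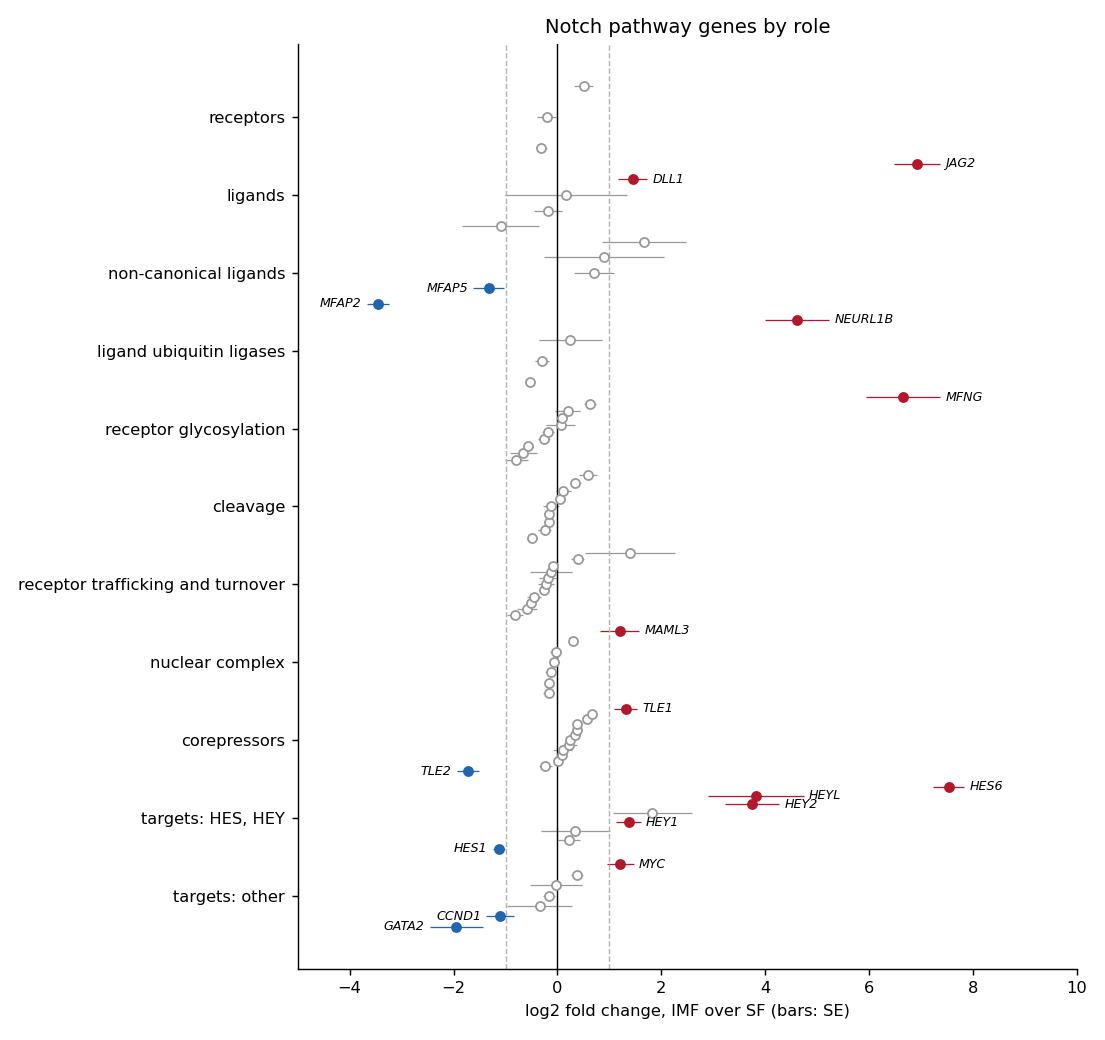
Log2 fold change of IMF over SF (horizontal axis, bars of 1 SE) for the 9 Notch genes and the 73 further pathway genes tested, by role. Filled and named points passed the threshold (red, higher in IMF, and blue, lower), open grey points did not, and dashed lines mark -1 and 1. The cleavage and trafficking rows hold open points only. The row of HES and HEY targets was drawn by family and includes *HES6*, which opposes HES1.

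Upstream of receptor activation, single genes stood out. *NEURL1B*, a ubiquitin ligase that promotes endocytosis of ligands, was at 7.15, 8.31, 7.39 and 7.38 CPM in the IMF clones and at 0.257, 0.701, 0.243 and 0 CPM in the SF clones, without overlap. Its log2 fold change was 4.62 (SE 0.61, adjusted p = 0.00106, edgeR), or 5.40 without SF2. The more abundant ligase of this role, *MIB1*, did not pass (-0.30). *MFNG*, a Fringe glycosyltransferase that modifies receptors and alters their response to Jagged and Delta-like ligands, was read with 62, 84, 81 and 56 counts in the IMF clones against 0, 2, 0 and 0 in the SF clones. SF2 held all of the SF counts. The ratio of pooled, library-scaled counts was 123, with an exact 95% counting interval of 33.8 to 1022, the adjusted p was 0.000385 (edgeR), and the fitted log2 fold change was 6.65. That fitted value depends on the prior count: it was 4.75 with a prior count of 2, and 9.08 without SF2, where every remaining SF count is 0 and the value is no measured fold. The related *LFNG*, the most abundant gene of the glycosylation role, was at 99.5, 100, 99.2 and 92.3 CPM in the IMF clones and 254, 128, 117 and 177 CPM in the SF clones. It lay higher in every SF clone but did not reach the fold threshold (log2 fold change -0.79, SE 0.23, adjusted p = 0.0348, edgeR). *RFNG*, named after its values were seen, was also below that fold (-0.56, adjusted p = 0.000451, edgeR). *MFNG* is transcribed in endothelium too, and the part of the endothelial transcripts in its difference was not tested.

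The microfibril proteins *MFAP2* and *MFAP5*, which can bind Jagged ligands and Notch1, were lower in IMF. *MFAP2* was at 5.13, 4.61, 4.49 and 4.43 CPM in the IMF clones and at 50.9, 73.5, 39.7 and 41.4 CPM in the SF clones, 11-fold higher in SF (log2 fold change -3.46, SE 0.21, adjusted p = 2.01e-05, edgeR). *MFAP5*, the most abundant of the non-canonical ligands in TPM, was 2.50-fold higher in SF (log2 fold change -1.32, SE 0.30, adjusted p = 0.0124, edgeR), with SF3 nearest to the IMF clones. *DNER*, named after its values were seen, did not pass in edgeR with all 8 clones (1.66) but did in limma-voom, and it passed in edgeR without SF1 (3.03).

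None of the 9 cleavage genes, which encode furin, ADAM proteases and the gamma-secretase subunits, passed the threshold in edgeR, and their log2 fold changes ran from -0.50 to 0.59; 3 passed by adjusted p-value alone, 3 had an unadjusted p-value under 0.05, and 0 passed in DESeq2 or limma-voom. With 8.82% of all genes past the threshold and 25.8% past the adjusted p-value alone, these counts in a list of 9 lay near the background. *PSENEN*, the most abundant of them, changed by -0.16 (adjusted p = 0.278, edgeR). None of the 11 trafficking and turnover genes passed in edgeR, against the same background; 4 did by adjusted p-value alone, 6 had an unadjusted p-value under 0.05, and 0 passed in DESeq2 or limma-voom. *NUMB*, the most abundant of these and an inhibitor of Notch signalling, was at 37.2, 39.2, 41.3 and 41.8 CPM in the IMF clones and at 50.8, 57.2, 51.8 and 66.8 CPM in the SF clones. Its groups did not overlap, with a log2 fold change of -0.51 (SE 0.10, adjusted p = 0.00656, edgeR). *DTX4*, a ubiquitin ligase named after its values were seen, did not pass (1.39, adjusted p = 0.282, edgeR). It spread from 0.350 to 24.7 CPM among the SF clones, all below the IMF clones. Its log2 fold change ran from 0.99 without SF2 to 2.20 without SF1 and was 2.59 in limma-voom, without passing.

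*RBPJ*, the DNA-binding partner of the cleaved receptor, named after its values were seen, was at 66.7, 64.2, 64.6 and 61.3 CPM in the IMF clones and 53.0, 65.5, 66.6 and 78.0 CPM in the SF clones, with a log2 fold change of -0.03 (SE 0.11, adjusted p = 0.857, edgeR). The groups overlapped, and the sign turned without SF4 (0.06) and with total counts alone (0.12). Over all 8 clones the coactivator *MAML1* was the most abundant of its role in TPM, but in IMF *SNW1*, *EP300* and *RBPJ* exceeded it. *MAML1* changed by -0.16 (adjusted p = 0.0907, edgeR). Its relative *MAML3* passed narrowly, at 1.20 (SE 0.38, adjusted p = 0.0489, edgeR), from 33, 61, 41 and 36 counts in the IMF clones and 25, 14, 9 and 14 counts in the SF clones. Its adjusted p rose to 0.0775, 0.116, 0.114 and 0.0865 without IMF1, IMF2, IMF3 and IMF4 and to 0.101, 0.0744 and 0.0951 without SF2, SF3 and SF4. The range over 19 alternatives was 0.00770 to 1, with the upper end from glmTreat. *MAML3* missed the threshold in 13 of the 19, among them the replicate block (0.0950), which takes clone number as a factor.

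Of 13 corepressor genes, 1 was higher and 1 lower in IMF, or 15.4% beside 8.82% of all genes. By adjusted p-value alone 7 passed, 6 higher and 1 lower, or 53.8% beside 25.8%. *TLE1* and *TLE2* encode Groucho corepressors that HES proteins recruit. *TLE1* was at 4.61, 3.89, 4.67 and 5.04 CPM in the IMF clones and 2.05, 2.20, 1.26 and 1.82 CPM in the SF clones (log2 fold change 1.31, SE 0.22, adjusted p = 0.00298, edgeR). *TLE2* was at 3.31, 3.07, 3.31 and 3.57 CPM in the IMF clones and 13.1, 10.5, 13.4 and 6.94 CPM in the SF clones (-1.73, SE 0.21, adjusted p = 0.000727, edgeR). *TLE1* was higher in every IMF clone and *TLE2* in every SF clone.

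Of 7 further target and feedback genes tested, 1 was higher and 2 were lower in IMF, or 42.9% past the threshold beside 8.82% of all genes (4.78% higher and 4.04% lower). All 3 respond to many signals beside Notch. *MYC*, a growth regulator, was at 72.9, 74.4, 79.5 and 72.2 CPM in the IMF clones and 37.3, 15.9, 36.8 and 39.0 CPM in the SF clones. SF2 was the lowest; the log2 fold change of 1.21 (SE 0.25, adjusted p = 0.00874, edgeR) fell just under the threshold, to 0.99, without SF2. *CCND1*, the cyclin of early G1, had the highest mean TPM of the list over all 8 clones. Within IMF *CDKN1A* exceeded it (79.5 against 74.4 TPM). *CCND1* was at 49.1, 50.3, 53.1 and 59.8 CPM in the IMF clones and 65.8, 92.9, 122 and 175 CPM in the SF clones. The log2 fold change of -1.10 (SE 0.27, adjusted p = 0.0175, edgeR) became -0.82 without SF4, the highest clone, and -0.94 with libraries scaled by total counts alone, and passed in neither case. *GATA2*, a transcription factor of endothelium, blood and preadipocytes that holds back adipocyte differentiation, was at 11.1, 12.3, 14.4 and 12.6 CPM in the IMF clones and 110, 18.0, 32.5 and 33.4 CPM in the SF clones. SF1 was again far above the others, as for *JAG1*. The log2 fold change was -1.94 (SE 0.51, adjusted p = 0.0246, edgeR) and -1.15 without SF1, and the adjusted p rose to 0.0626, 0.0624, 0.0580 and 0.0615 without IMF1, IMF2, IMF3 and IMF4. The range over 19 alternatives was 0.000731 to 0.330, with the upper end from glmTreat. *GATA2* also missed the threshold in limma-voom (0.0563) and with the replicate block (-1.58, adjusted p = 0.0656, edgeR).

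For each of the 5 Notch genes that passed, the most similar genes over the 8 clones were listed by Pearson correlation of log2 CPM among 11419 genes with a mean of at least 5 CPM, as a description without a test; the 8 points fall into the 2 groups, so that any gene with a like group difference scores high. *JAG2* was most like *EGFL7* (r = 0.998), a secreted factor of endothelium, then *SNHG3* and *MT2A*. *HES1* was most like *RBP4* (r = 0.996), the retinol carrier, then *RNF145* and *LOXL4*. *DLL1* was most like *PGM5*, *LOC101905041* and *FADS1* (r = 0.991, 0.990 and 0.989). *HEY1* was most like *KRT80*, *TTC9* and *LRRC59* (r = 0.992, 0.985 and 0.985), and *HEY2* was most like *CDO1*, *CD36* and *SERPING1* (r = 0.993, 0.992 and 0.991).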

How the data were processed

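The authors trimmed the reads (Trimmomatic 0.39), aligned them to the bovine assembly ARS-UCD2.0 and assigned them to genes with featureCounts 2.0.2; the deposited values are raw counts per gene and clone, with whole numbers and unequal totals, although the methods speak of TPM. The aligner is HISAT2 in the methods and STAR 2.7.11a in the submitters' processing notes, and the kit is described as non-stranded in one and as a dUTP protocol in the other, so reads of genes overlapping on opposite strands may not be separable. The deposited table also holds 9 columns of group means and of the authors' own DESeq2 comparison, which were not used. A row without a gene name, 0.0148 to 0.0209% of the counts of a clone, was left out.

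Genes with at least 20 counts in total (18339 of 18871; the lowest total was 11) entered edgeR 4.0.16 under R 4.3.3 (TMM, quasi-likelihood, 2-sided, Benjamini-Hochberg over all genes tested), with no covariate. The SE given for edgeR is the absolute log2 fold change divided by the square root of the quasi-likelihood F statistic. For genes near 0 in SF it depends on the prior count, as the log2 fold change does. TPM was computed from the deposited gene length in bases, and shares of summed TPM were compared by exact permutation. Coordinates are those RefSeq gives for ARS-UCD2.0, where 14201 gene IDs were found by symbol. The p-values measure the spread between these clones. The Notch genes, the pathway list and the marker lists were chosen with earlier results of these data known. Genes named were the 10 Notch genes, the pathway genes past the threshold, the most abundant gene of each role by mean TPM, the 3 genes most similar to each Notch gene that passed, and of each marker list the most abundant gene and at most 5 that passed; endothelial and muscle markers at 0 in all SF clones were added. *RFNG*, *RBPJ*, *HES4*, *DTX4* and *DNER*, the HES and HEY shares, the ratio of *HES1* to *HEY1*, the measure of clone likeness and the even counts were chosen after the values were seen. Alternatives were other scalings, DESeq2 1.42.0, limma-voom (limma 3.58.1), glmTreat, robust dispersion, other filters and prior counts, a replicate block and leaving out each clone.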

Additional observations from a re-analysis of the deposited data

Results flagged for a closer look

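In 68 groups of 4 clones (34 genes in 2 groups, including 5 genes chosen after their values were seen), 6 groups had a clone far from the other 3, with a gap to its nearest neighbour that took up most of the group's range (Dixon's 95% critical value); chance gives about 1 in 20 groups. Of these clones 5 were SF clones, among them SF1 for 3 genes. *HEYL* was at 3.95 CPM in SF1 and at most 0.606 CPM in the other SF clones. *GATA2* was at 110 CPM in SF1 and at 18.0 to 33.4 CPM in the others. *HES4* was at 1.59 CPM in SF1 and at 0.100 to 0.276 CPM in the others. *MYC* was at 15.9 CPM in SF2 and at 36.8 to 39.0 CPM in the others. *MFNG* was at 0.100 CPM in SF2, and at 0 in the others; its 2 counts lie under the floor of 3, and with the others at 0 the gap equals the range by construction, so SF2 is not shown to stand apart. *LFNG* was at 92.3 CPM in IMF4 and at 99.2 to 100 CPM in the other IMF clones.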

How the results depend on the processing

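Of the 9 Notch genes, 5 passed when any 1 clone was left out (range 5 to 5; higher 4 to 4, lower 1 to 1). The test against the fold threshold itself (glmTreat) kept 2, with 2 higher and 0 lower (*JAG2* and *HEY2*), and scaling by total counts alone left 0 lower, *HES1* being at -0.98. With clone number as a replicate block, 5 passed (4 higher, 1 lower). Whether clone numbers pair is not stated. Across genes, same-number pairs had r of 0.0413 to 0.332 (mean 0.136) and other pairs -0.198 to 0.227 (mean -0.0466). IMF4 and SF4 had the highest r, while IMF2 was most like SF3. Genes are not independent replicates, so these values do not decide whether clone numbers pair.

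Of all genes 1618 passed; with glmTreat 631 did (476 higher, 155 lower), without a fold threshold 4724 (2639 and 2085), with the replicate block 1489, and with 1 clone left out 1332 to 1643 (726 to 974 higher, 606 to 832 lower). Of the further pathway genes 12 passed; with glmTreat 5 did (3 and 2), without a fold threshold 30 (18 and 12), with the replicate block 10 (6 and 4; *MAML3* and *GATA2* no longer passed), and with 1 clone left out 10 to 14 (5 to 9 higher, 4 to 5 lower). The cause of the differences with the replicate block and between clones left out was not tested.

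Signs that turned were those of *JAG1* (leave-one-out -1.44 to 0.27), *DLL3* (-0.96 to 1.04) and *RBPJ* (-0.126 to 0.0573; 0.119 with total counts alone), and of the share differences in percentage points of *NOTCH1* (-4.30 to 0.682), *NOTCH2* (-0.915 to 4.10) and *DLL3* (-1.07 to 0.0179). The cause was not tested. The *HES1* share of the HES and HEY level differed by -51.6 points, by -53.8 to -50.2 with 1 clone left out and by -59.1 without division by gene length, alternatives chosen after seeing the data. Over 34 named genes and 19 alternatives, 604 of the comparisons kept direction and side of the threshold, 32 fell short of it, 4 newly passed and 6 reversed. Genes at a few counts, such as *JAG2* in SF, are limited by depth.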

Other observations

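All 8 counts of *DLL4*, *DLL3*, *DLK1*, *NEURL1* and *HES3* were even numbers, as they were in 1879 of the 18871 genes measured (9.96%) and in 227 of the 13112 genes with at least 20 counts in every clone (1.73%). None of the 5 Notch genes past the threshold was among them. Among genes with a mean of at least 5 CPM in both groups, the median biological coefficient of variation between IMF clones was 33.6% in the 117 genes with even counts alone and 4.08% in the 10603 others, and between SF clones it was 20.4% and 12.3%. For *DLL4* it was 33.6% in IMF and 23.8% in SF. How these counts came to be even was not tested. This comparison was chosen after the data were seen.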
